A study of Homo sapiens with 6 samples.

Results

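The 38 genes described here encode proteins that move amino acids across membranes or make them inside the cell: 23 carriers and 15 enzymes of serine, glycine, folate, proline, asparagine, cysteine and transamination metabolism. They were chosen by gene name and role, with earlier results of these data known, and all 38 were found by Ensembl identifier among the 58735 genes of the deposited table. Of these, 36 members were among the 12960 genes with a mean of at least 1 FPKM (fragments per kilobase of exon, scaled to library size, so a level corrected for gene length) over the 6 libraries. The cells were C4-2B MDVR, human prostate cancer cells of the C4-2B line that resist enzalutamide, so every group shares that 1 line and its resistance. Each treatment lasted 2 days and gave 1 library: DMSO as the control, enzalutamide at 20 uM, PTUPB at 10 uM, PTUPB at 20 uM, and either PTUPB dose together with enzalutamide. Enzalutamide is a hormone therapy drug for prostate cancer, and PTUPB inhibits both cyclooxygenase-2 and soluble epoxide hydrolase. The labels give no enzalutamide dose for the combinations, and the additive and interaction fits below assume that it was the same.

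Cells import most amino acids through solute carriers, several of which work as exchangers that trade one amino acid for another. The heavy chain SLC3A2 (CD98) has no transport activity of its own and brings light chains of the SLC7 family, such as the leucine exchanger SLC7A5, to the plasma membrane. Serine is made from a glycolytic intermediate by PHGDH, PSAT1 and PSPH, and its conversion to glycine by SHMT1 in the cytosol or SHMT2 in mitochondria feeds the folate enzymes of the MTHFD family. When amino acids run short or proteins misfold in the endoplasmic reticulum, the transcription factor ATF4 is made in larger amounts and binds C/EBP-ATF response elements near many of these genes. MYC, which binds E-boxes, is another known regulator of amino acid uptake genes.

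Promoter sequences are shown for members whose window held one of these 2 motifs and whose level changed at 20 uM PTUPB. RefSeq windows on GRCh38.p14, running from 250 bases before to 50 bases after a gene's start, were found for 32 members, and the first listed start was used for each; PSPH, SHMT2, PYCR1, GPT2, SLC6A6 and SLC7A2 had no entry. The motif TGATGNAA, the core of the C/EBP-ATF response element, was searched on both strands, and so was the E-box CACGTG; the 2 motifs do not overlap in the windows shown. Capitals mark the matches in the 250 bases before the start (for SLC3A2, bases 21 to 50 after it), written 5′ to 3′ on the strand of the gene.
ASNS (chr7:97872409-97872658, minus strand): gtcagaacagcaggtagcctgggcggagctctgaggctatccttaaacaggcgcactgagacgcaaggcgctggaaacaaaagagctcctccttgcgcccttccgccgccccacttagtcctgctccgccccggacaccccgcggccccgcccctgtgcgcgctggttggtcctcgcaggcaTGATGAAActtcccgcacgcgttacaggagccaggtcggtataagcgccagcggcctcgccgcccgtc
GOT1 (chr10:99430625-99430874, minus strand): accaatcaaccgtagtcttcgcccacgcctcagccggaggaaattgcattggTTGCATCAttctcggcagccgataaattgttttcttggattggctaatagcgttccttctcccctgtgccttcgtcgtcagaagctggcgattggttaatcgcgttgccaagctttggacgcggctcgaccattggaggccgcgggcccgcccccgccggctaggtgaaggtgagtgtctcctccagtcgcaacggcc
MTHFD1L (chr6:150866236-150866485, plus strand): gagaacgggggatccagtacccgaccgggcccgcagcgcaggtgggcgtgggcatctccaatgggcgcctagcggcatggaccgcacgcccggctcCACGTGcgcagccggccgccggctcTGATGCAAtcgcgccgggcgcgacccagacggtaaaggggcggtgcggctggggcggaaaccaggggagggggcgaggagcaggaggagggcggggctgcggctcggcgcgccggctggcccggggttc
SLC3A2 (chr11:62881719-62881748, plus strand): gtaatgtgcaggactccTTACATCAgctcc
SLC7A5 (chr16:87869508-87869757, minus strand): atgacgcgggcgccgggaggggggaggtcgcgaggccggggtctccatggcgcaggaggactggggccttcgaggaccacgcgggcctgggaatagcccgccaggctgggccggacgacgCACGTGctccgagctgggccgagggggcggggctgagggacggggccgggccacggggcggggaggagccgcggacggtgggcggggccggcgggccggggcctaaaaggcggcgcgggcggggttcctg
SLC43A1 (chr11:57515703-57515952, minus strand): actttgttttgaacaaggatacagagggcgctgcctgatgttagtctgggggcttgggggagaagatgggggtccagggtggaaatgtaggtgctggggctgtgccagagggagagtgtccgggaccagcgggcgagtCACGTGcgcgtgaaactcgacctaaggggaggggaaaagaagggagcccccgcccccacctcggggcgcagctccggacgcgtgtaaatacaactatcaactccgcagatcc
SLC1A3 (chr5:36596338-36596587, plus strand): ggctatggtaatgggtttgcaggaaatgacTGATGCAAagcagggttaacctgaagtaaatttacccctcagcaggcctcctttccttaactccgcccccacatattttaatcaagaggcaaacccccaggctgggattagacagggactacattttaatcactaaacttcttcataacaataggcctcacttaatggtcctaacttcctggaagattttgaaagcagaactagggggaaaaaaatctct
MTHFD1 (chr14:64388103-64388352, plus strand): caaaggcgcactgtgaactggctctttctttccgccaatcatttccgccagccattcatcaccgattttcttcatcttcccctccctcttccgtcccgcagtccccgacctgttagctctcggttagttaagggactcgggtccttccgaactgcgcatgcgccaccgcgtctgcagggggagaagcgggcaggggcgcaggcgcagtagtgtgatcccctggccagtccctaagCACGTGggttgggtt
The ASNS match is TGATGAAA, 68 bases before the start. MTHFD1L holds TGATGCAA 129 bases before its start and an E-box 154 bases before it. SLC1A3 holds the same TGATGCAA 220 bases before its start. GOT1 and SLC3A2 hold the reverse form, as TTGCATCA and TTACATCA. The SLC3A2 match lies in 1 of the 3 windows listed for that gene. TGATGNAA was found in 4 of the 5 windows of members that rose at 20 uM PTUPB (ASNS, GOT1, MTHFD1L and SLC3A2, but not CTH). It was also in 1 of 9 windows of members that fell (SLC1A3), 2 of 16 of those that did not pass (SLC38A1 and SLC7A1), and 3.67% of all 27305 promoters. The E-box was in 1 of 5, 3 of 9 (SLC7A5, SLC43A1 and MTHFD1) and 2 of 16 windows of these groups, against 7.43% of all promoters. These counts rest on the first listed start, and 15 members had several windows. Over any listed start, 9 of 32 members held TGATGNAA, against 4.46% of all genes. By the same count 10 of 32 held the E-box, against 8.77%. The split by call was not counted over any listed start. A match says only that the letters are present.

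The libraries held between 20156523 and 29450436 fragments, recovered from the FPKM, with the 2 libraries at 20 uM PTUPB the shallowest. Tested members had from 8 to 48113 fragments per library (median 1974.5), and 34 of the 36 had at least 100 in every library. Summed FPKM of 8 luminal prostate markers was 768 to 988 in the 4 libraries below 20 uM PTUPB and 237 to 261 at 20 uM. The keratin KRT8, 1 of them, was at 42.5 to 55.0 and then 56.7 to 82.1 FPKM. Summed basal, blood and endothelial markers stayed at or below 0.522 FPKM. The 5 stromal markers summed to 2.48 to 3.98 FPKM below 20 uM and 5.59 to 7.0 at 20 uM, mostly COL1A1, while DCN was at or near 0. The part of these marker differences in the results was not tested. In bulk RNA, a change in the mixture of cells and a change in RNA per cell cannot be told apart.

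At 20 uM PTUPB the members split: the heavy chain SLC3A2, the mitochondrial folate enzymes SHMT2 and MTHFD1L, and ASNS, GOT1 and CTH rose, while most carriers that changed, the cytosolic folate enzymes and part of the serine pathway fell. In a limma model of all 6 libraries, with PTUPB as 3 levels plus enzalutamide and p-values adjusted over all 12960 genes, 6 of 36 tested members rose (16.7%), 11 fell (30.6%) and 19 did not pass. Over all tested genes 15.9% rose and 18.2% fell, so the share of rising members is near the background. The median effect was -0.46 on the log2(FPKM + 1) scale, against 0.0045 over all genes tested. Of the 21 tested carriers 1 rose and 7 fell, and of the 15 enzymes 5 rose and 4 fell. Both 20 uM libraries lay below the 4 others for 21 of 36 members (58.3%, against 29.5% of all tested genes). They lay above them for 5 (13.9%, against 30.3% of all). The falling carriers SLC1A3, SLC6A6 and SLC16A10 passed the level filter only through the libraries below 20 uM, so they could enter these counts only as lower. Since each group has 1 library, a p-value here sets an effect against departures from the additive model and says nothing of replicate spread, and on simulated data false calls exceeded the share that the adjustment aims at. The calls depended on single libraries: every call was lost without the library of enzalutamide alone, and most were lost without the control library. Without that of 20 uM PTUPB alone most were kept and others were gained. With all expressed genes tested, 4 of the 17 calls were kept.

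**Figure D1:**
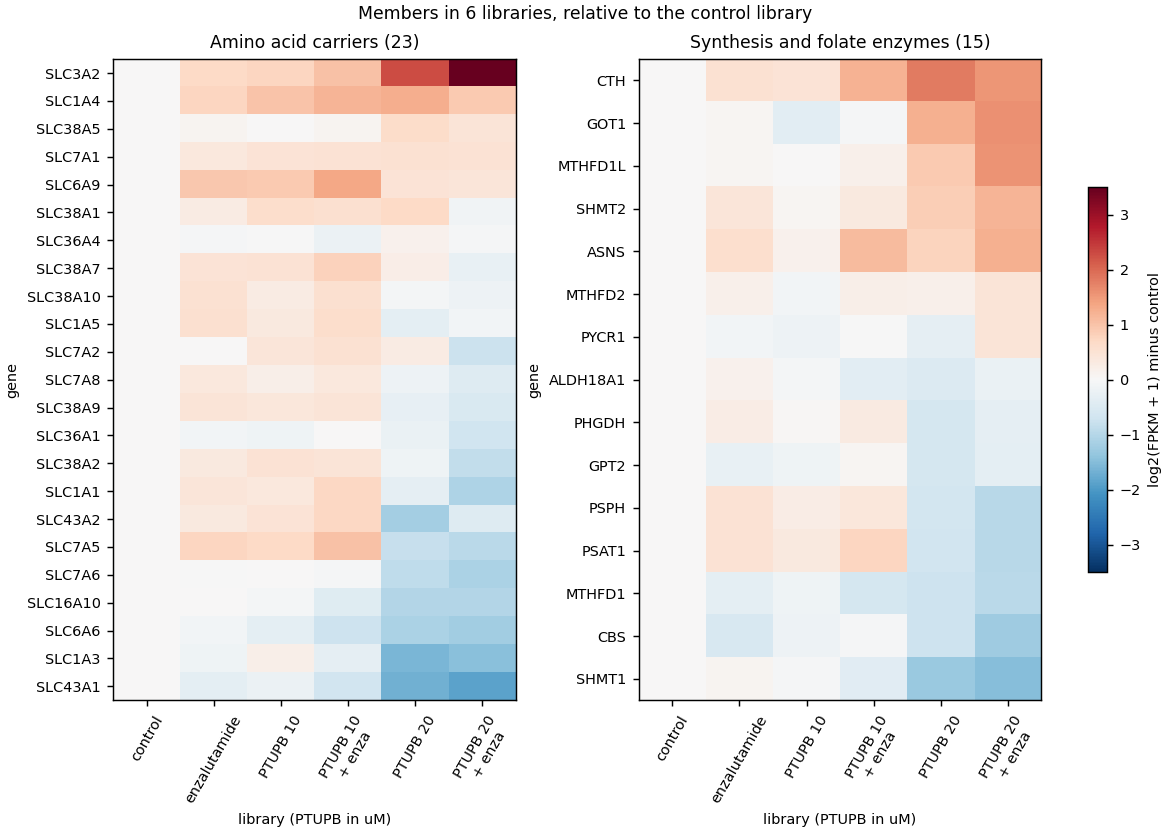
Level of each of the 38 members in the 6 libraries as log2(FPKM + 1) minus the control library, with carriers on the left and enzymes on the right (red higher, blue lower). SLC3A2 is darkest red in the 20 uM columns (195.7 and 506 FPKM against 39.3 in control), and SLC43A1 is the bluest carrier there.

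SLC3A2 (ENSG00000168003, GENCODE 29 position chr11:62856102-62888875 on GRCh38) had the largest rise of all members. It stood at 39.3 FPKM in control, 63.8 with enzalutamide, 66.2 with 10 uM PTUPB and 81.3 with that dose plus enzalutamide. At 20 uM it reached 195.7 without and 506 with enzalutamide, 4.98-fold and 7.94-fold above the matched libraries. Both 20 uM libraries lay above the 4 others, and they differed from each other 2.59-fold. The model effect was 2.63 (SE 0.30, limma adjusted p 0.0047).

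SLC7A5 (ENSG00000103257, chr16:87830023-87869488), the light chain that carries leucine and other large neutral amino acids, moved the opposite way. It was at 71.5 FPKM in control, 120.0 with enzalutamide, 116.6 with 10 uM PTUPB and 145.3 with both, then 40.8 and 36.7 at 20 uM. It was therefore highest in the low-dose combination and lowest in the 2 libraries at 20 uM, whose values do not overlap with the rest. Its effect at 20 uM was -1.24 (SE 0.26, limma adjusted p 0.020), and against 10 uM it was -1.73 (SE 0.26, adjusted p 0.0098). Reads may be shared with its pseudogene SLC7A5P1, which was at most 3.55 FPKM. The 20 uM effect of SLC7A5 did not pass without the library of 20 uM PTUPB plus enzalutamide, of control or of enzalutamide alone. It also did not pass with no filter on low values.

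The ratio of SLC3A2 to SLC7A5 in FPKM, a scale corrected for length, was nearly constant below 20 uM: 0.549 in control, 0.532 with enzalutamide, 0.568 with 10 uM PTUPB and 0.559 with both. At 20 uM it was 4.80 without and 13.8 with enzalutamide. SLC7A6, a light chain that exchanges arginine and neutral amino acids, fell as well: it was between 3.31 and 3.54 FPKM in the 4 libraries below 20 uM and at 1.39 and 1.09 at 20 uM (effect -0.99, SE 0.18, limma adjusted p 0.014). Over 44.4% of its exon bases it overlaps SLC7A6OS on the opposite strand. SLC7A8, the related light chain for small and large neutral amino acids, was at 11.3 to 20.6 FPKM and did not pass (-0.49, SE 0.21, adjusted p 0.13). The cystine light chain SLC7A11, from the list of other carriers, was at 15.6 FPKM in control, 25.1 with enzalutamide, 34.1 and 42.4 at 10 uM without and with enzalutamide, and 70.0 and 28.7 at 20 uM (effect 1.14, SE 0.46, adjusted p 0.11). Summed over 6 light chains (SLC7A5, SLC7A6, SLC7A7, SLC7A8, SLC7A10 and SLC7A11), FPKM ranged from 77.7 at 20 uM with enzalutamide to 212 at 10 uM with enzalutamide. SLC3A2 was 0.369 to 0.384 of that sum below 20 uM and 1.55 and 6.52 times it at 20 uM.

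**Figure D2:**
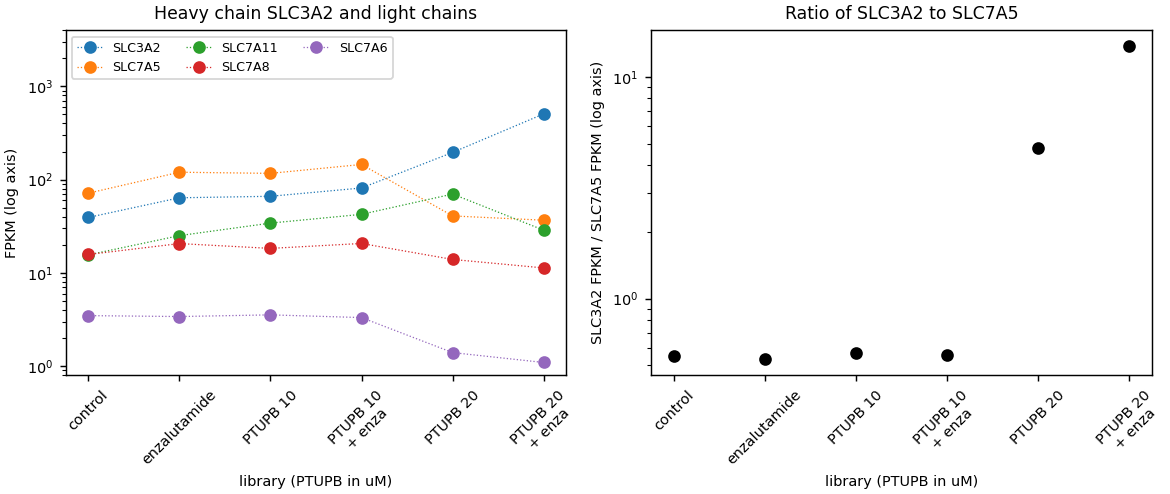
Left, FPKM (log axis) of the heavy chain SLC3A2 and 4 light chains in each library; right, SLC3A2 divided by SLC7A5 (log axis). Each point is 1 library. The ratio lies between 0.532 and 0.568 in the 4 libraries below 20 uM PTUPB and at 4.80 and 13.8 at 20 uM.

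Among carriers outside the SLC3A2 complex, the system L uniporter SLC43A1, which lets large neutral amino acids through without exchange, had the lowest effect on the log2(FPKM + 1) scale. It stood at 42.4 FPKM in control, 33.0 with enzalutamide, 37.0 and 26.3 at 10 uM without and with enzalutamide, and 12.5 and 10.8 at 20 uM. Every library with 20 uM PTUPB was below every other. Its effect was -1.61 (SE 0.18, limma adjusted p 0.0043), and the call held without the control library but not without the enzalutamide library.

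The related uniporter SLC43A2 was at 6.02, 7.89, 8.76 and 10.6 FPKM in control, enzalutamide, 10 uM and 10 uM plus enzalutamide, then 2.09 and 4.17 at 20 uM. Its fall against 10 uM was -1.42 (SE 0.19, limma adjusted p 0.0073). SLC1A3, a glutamate and aspartate carrier, was at 2.21 FPKM in control, 1.89 with enzalutamide, and 2.71 and 1.59 at 10 uM. At 20 uM it was at 0.0540 FPKM without enzalutamide, from 8 fragments (exact 95% Poisson interval 0.0233 to 0.106 FPKM, counting error only), and at 0.174 with it, from 20. As plain FPKM ratios it was 40.9-fold and 10.9-fold lower than in control and enzalutamide, more than the 3.40-fold and 3.05-fold of SLC43A1. SLC1A3 passed the level filter only through the libraries below 20 uM (effect -1.45, SE 0.28, adjusted p 0.015).

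The taurine carrier SLC6A6 was lower at each step of dose, from 3.04 FPKM in control and 2.75 with enzalutamide, to 2.18 and 1.45 at 10 uM, and 0.877 and 0.740 at 20 uM. In each dose pair the library with enzalutamide was the lower one. SLC16A10, a carrier of aromatic amino acids, was at 2.47, 2.53, 2.28 and 1.57 FPKM in the first 4 libraries and at 0.704 and 0.713 at 20 uM. The effects of SLC6A6 and SLC16A10 at 20 uM were -1.11 (SE 0.22) and -1.03 (SE 0.23), with limma adjusted p of 0.016 and 0.023. Like SLC1A3, both were under 1 FPKM in the 20 uM libraries and passed the level filter only through the others.

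The remaining carriers did not pass at 20 uM. SLC1A5, the main glutamine exchanger, was at 56.0 FPKM in control, 83.1 with enzalutamide, 71.8 and 85.6 at 10 uM without and with enzalutamide, and 44.0 and 52.3 at 20 uM (effect -0.50, SE 0.20, limma adjusted p 0.10). Against 10 uM its fall passed (-0.70, SE 0.20, limma adjusted p 0.045), though not after rescaling to TPM, a scale on which every library has the same total. That fall also did not pass with no filter, or when any library other than that of 20 uM PTUPB alone was left out. SLC38A2, a sodium-coupled carrier of small neutral amino acids that starvation is known to induce, was at 70.1, 89.8, 99.0 and 95.6 FPKM in the first 4 libraries, and at 62.8 and 38.2 at 20 uM without and with enzalutamide. Its effect of -0.68 (SE 0.29, adjusted p 0.12) missed the threshold, as did that against 10 uM (adjusted p 0.0503). SLC1A1, a glutamate and cysteine carrier, was at 3.45 to 6.37 FPKM below 20 uM and at 2.57 and 1.10 there (effect -0.91, SE 0.33, adjusted p 0.080).

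The carriers SLC1A4, SLC6A9 and SLC7A1 were higher in both 20 uM libraries than in control. SLC1A4, an exchanger of alanine, serine and cysteine, was lowest in control at 2.78 FPKM and stood at 5.34 with enzalutamide, 6.54 and 7.58 at 10 uM and 8.07 and 6.07 at 20 uM. Its effect at 20 uM was 0.71 (SE 0.28, limma adjusted p 0.10). The glycine carrier SLC6A9 was highest at 17.6 FPKM in the low-dose combination, against 6.32 in control, 13.0 with enzalutamide, 12.8 at 10 uM, and 9.19 and 8.83 at 20 uM. With enzalutamide present, its 20 uM library was therefore below the matched one, and its model effect was near 0 (-0.015, SE 0.26). SLC7A1, which carries arginine and lysine, was at 45.2 FPKM in control, 59.0 with enzalutamide, 63.8 and 65.1 at 10 uM, and 65.3 and 64.0 at 20 uM (effect 0.32, SE 0.20). The effects of the lysosomal carriers SLC38A9, SLC36A1 and SLC38A7 were -0.63, -0.41 and -0.25, with limma adjusted p of 0.073, 0.19 and 0.49. SLC38A9 was at 1.90 to 4.69 FPKM, SLC36A1 at 1.87 to 3.65 and SLC38A7 at 3.73 to 8.93. SLC38A1, SLC38A10 and SLC7A2 were at 24.4 to 44.2, 13.0 to 22.4 and 1.30 to 4.55 FPKM, with effects of 0.15, -0.40 and -0.24, and none passed. SLC38A9, SLC36A1 and SLC38A10 were below control in both 20 uM libraries.

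Of the 3 serine synthesis enzymes, PSAT1 and PSPH fell at 20 uM PTUPB and PHGDH did not pass. PSAT1, the second enzyme of the pathway, was at 128.9 FPKM in control, 181.8 with enzalutamide, 163.9 and 215.9 at 10 uM without and with enzalutamide, and 80.0 and 65.3 at 20 uM. PSPH, the last enzyme, followed at 18.8, 27.0, 22.8, 25.1, 11.6 and 9.10 FPKM in the same order. For both genes the 20 uM libraries lay below the 4 others. They fell by 1.07 (SE 0.27, limma adjusted p 0.030) and by 1.06 (SE 0.24, adjusted p 0.022) on the log2 scale. PSPH shares sequence with PSPHP1, which was listed at 22.0 to 45.7 FPKM, so its level is uncertain.

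PHGDH, the first enzyme, was at 51.9 FPKM in control, 62.2 with enzalutamide, 53.9 and 64.5 at 10 uM and 33.7 and 41.3 at 20 uM. Its effect of -0.59 (SE 0.18) had a limma adjusted p of 0.0506, and against 10 uM it passed (-0.65, adjusted p 0.041). The PHGDH call against 10 uM was lost after TPM and with no filter on low values. It was also lost when any library other than that of 20 uM PTUPB alone was left out. Summed over PHGDH, PSAT1 and PSPH, the level was 199.6 FPKM in control, 271 with enzalutamide, 240.6 and 305.5 at 10 uM, and 125.3 and 115.6 at 20 uM.

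ASNS (ENSG00000070669, chr7:97852118-97872542), which makes asparagine, went the other way from the serine enzymes at 20 uM. It was at 3.81 FPKM in control, 6.25 with enzalutamide, 4.31 and 9.30 at 10 uM without and with enzalutamide, and 7.31 and 10.5 at 20 uM. In each dose pair the library with enzalutamide was the higher one, and the 20 uM libraries overlap with the low-dose combination. The effect at 20 uM was 0.73 (SE 0.19, limma adjusted p 0.034). It did not pass when scaled by total fragments (adjusted p 0.060) or with no filter on low values. Nor did it pass when any library other than that of 20 uM PTUPB plus enzalutamide was left out. The pseudogene ASNSP1 was listed at 2.05 to 4.51 FPKM below 20 uM and at 11.9 and 15.02 there, and reads may be shared between the copies. ASNS also shares 44.6% of its exon bases with AC079781.5 on the same strand, which was at most 0.106 FPKM.

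**Figure D3:**
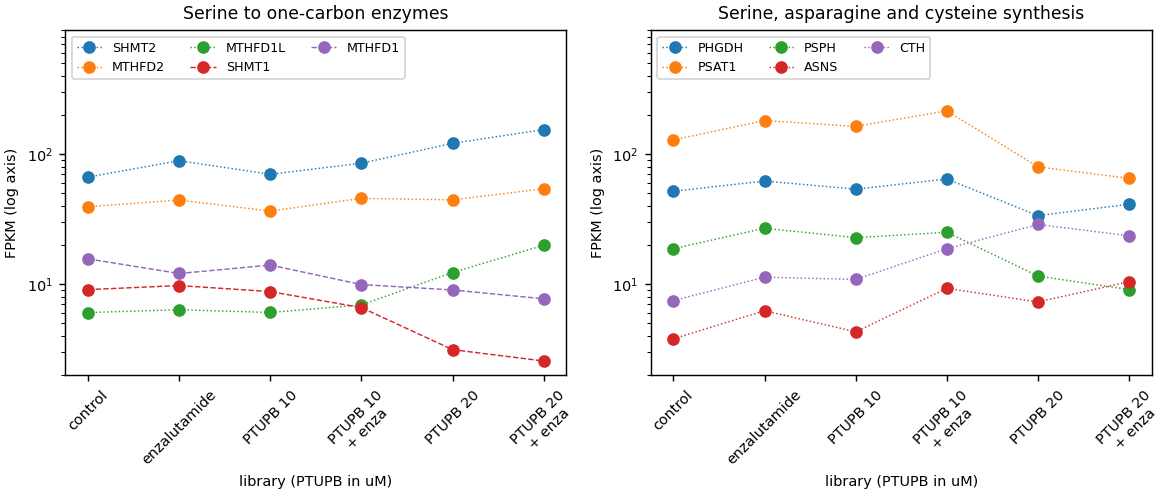
FPKM (log axis) in each library for folate enzymes (left; cytosolic enzymes joined by dashed lines) and for serine, asparagine and cysteine synthesis enzymes (right); each point is 1 library. SHMT2 is at 121 and 155 FPKM at 20 uM PTUPB while SHMT1 is at 3.14 and 2.57, and PSAT1 and PSPH are at their lowest there.

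Among the folate enzymes, the mitochondrial SHMT2 and MTHFD1L rose and the cytosolic SHMT1 and MTHFD1 fell, while the mitochondrial MTHFD2 did not pass. SHMT2 (ENSG00000182199, chr12:57229327-57234935), the mitochondrial serine hydroxymethyltransferase, was at 66.8 FPKM in control, 89.2 with enzalutamide, 70.1 and 85.4 at 10 uM, and 121 and 155 at 20 uM. Its cytosolic counterpart SHMT1 was at 9.09, 9.77, 8.78 and 6.61 FPKM below 20 uM and at 3.14 and 2.57 there. Both 20 uM libraries were above the rest for SHMT2 and below the rest for SHMT1. SHMT2 rose by 0.82 (SE 0.19, limma adjusted p 0.026) and SHMT1 fell by 1.44 (SE 0.18, adjusted p 0.0057) on the log2 scale. SHMT2 lost its call when either 10 uM library, the control library or the library of enzalutamide alone was left out. It was also lost with no filter on low values.

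The ratio of SHMT2 to SHMT1 was 7.35 in control, 9.13 with enzalutamide, 7.99 and 12.9 at 10 uM, and 38.6 and 60.3 at 20 uM. MTHFD1L, which makes formate in mitochondria, was at 6.06 FPKM in control, 6.37 with enzalutamide, 6.06 and 6.93 at 10 uM, and 12.3 and 19.9 at 20 uM (effect 1.21, SE 0.20, limma adjusted p 0.011). The cytosolic trifunctional enzyme MTHFD1 was at 15.7 FPKM in control, 12.1 with enzalutamide, 14.0 and 9.94 at 10 uM, and 9.04 and 7.73 at 20 uM. MTHFD1 fell by 0.66 (SE 0.17, limma adjusted p 0.032). Its call was lost after TPM (adjusted p 0.060) and with no filter on low values. It was also lost without the control library, that of enzalutamide alone or either 10 uM library. As a ratio, MTHFD1L to MTHFD1 moved from 0.386 in control to 1.36 and 2.58 at 20 uM. The mitochondrial dehydrogenase MTHFD2 did not pass: it was at 39.5 FPKM in control, 44.4 with enzalutamide, 36.6 and 45.8 at 10 uM, and 44.6 and 54.2 at 20 uM (effect 0.23, SE 0.18, adjusted p 0.36).

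The aspartate aminotransferase GOT1, the cytosolic partner of the malate-aspartate shuttle, was at 24.3 FPKM in control, 25.5 with enzalutamide and 18.8 and 23.6 at 10 uM. It reached 59.5 and 75.4 FPKM at 20 uM, both above all other libraries (effect 1.39, SE 0.18, limma adjusted p 0.0060). GOT1 overlaps GOT1-DT on the opposite strand, listed at up to 0.883 FPKM. CTH, which releases cysteine from cystathionine, was at 7.48 FPKM in control, 11.3 with enzalutamide, 10.9 and 18.8 at 10 uM, and 28.8 and 23.6 at 20 uM (effect 1.40, SE 0.28, adjusted p 0.016). Thus CTH was lowest in control and highest at 20 uM PTUPB alone. CBS, the enzyme before it, was at 6.21, 3.89, 5.33 and 5.97 FPKM and then at 3.35 and 2.04 (effect -0.71, SE 0.23, adjusted p 0.061). It has a near-identical copy, CBSL, listed at up to 0.422 FPKM, and reads may be shared.

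The proline enzymes and the alanine aminotransferase GPT2 did not pass at 20 uM. ALDH18A1, the first step from glutamate to proline, was at 42.5 FPKM in control, 47.6 with enzalutamide, 40.3 and 32.8 at 10 uM and 30.1 and 35.95 at 20 uM (effect -0.44, limma adjusted p 0.16). PYCR1, the last step, was at 71.9 FPKM in control, 66.8 with enzalutamide and 63.0 and 70.7 at 10 uM, and at 57.5 and 98.9 at 20 uM without and with enzalutamide, which are the lowest and highest of its 6 values. GPT2 was at 22.0 to 27.5 FPKM below 20 uM and at 17.0 and 20.6 there.

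**Figure D4:**
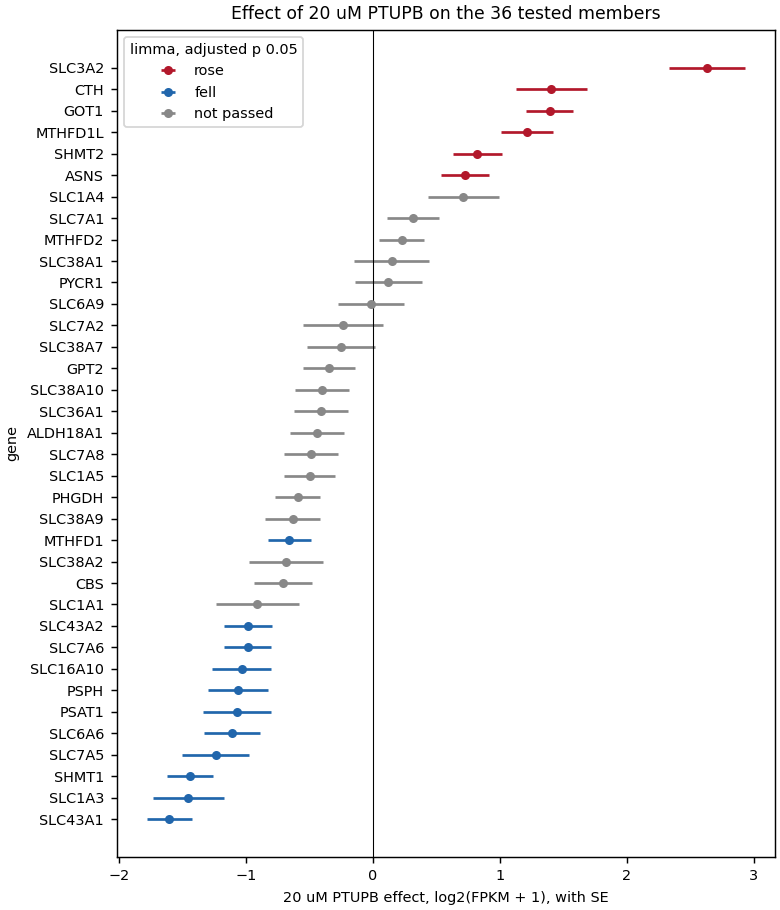
Effect of 20 uM PTUPB on each of the 36 tested members in the additive limma model, on the log2(FPKM + 1) scale with its SE; red rose, blue fell, grey did not pass at adjusted p 0.05. SLC3A2 stands apart at 2.63, and the lowest effects are those of SLC43A1 at -1.61, SLC1A3 at -1.45 and SHMT1 at -1.44.

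Set directly against 10 uM, 20 uM PTUPB gave 4 rising members (SLC3A2, GOT1, MTHFD1L and SHMT2) and 13 falling ones by limma, 11.1% and 36.1% of the 36 tested. Over all tested genes 16.5% rose and 16.9% fell. The falling members were 8 carriers, with SLC7A5 the lowest, and the enzymes PSAT1, SHMT1, PSPH, CBS and PHGDH. The median of the members was -0.64, against 0.017 over all genes. On the TPM scale the corresponding medians stood at -0.52 and 0.17. Most of these calls were lost without the library of 10 uM PTUPB alone, and most without the low-dose combination. When either library lacking PTUPB was left out, most were kept. Without the library of 20 uM PTUPB alone all were kept and others were gained. With every expressed gene tested, 3 of the 17 calls were kept.

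With enzalutamide alone or 10 uM PTUPB alone, no tested member was higher or lower by log2 1 or more on the log2(FPKM + 1) scale; over all genes 1.31% were higher and 1.37% lower with enzalutamide, and 1.62% and 0.772% with 10 uM PTUPB. Members were above control in 27 of 36 cases with enzalutamide (median 0.31; 49.3% of all genes, median -0.0025) and in 24 of 36 with 10 uM PTUPB (median 0.21; 45.4% of all genes, median -0.032). Both pairs share the control library. The scale matters here: after TPM the member medians turned to -0.10 and -0.061, beside all-gene medians of -0.41 and -0.33. As plain ratios of FPKM, SLC6A9 was 2.05-fold and 2.02-fold above control in these pairs, SLC1A4 1.92-fold and 2.35-fold, SLC7A5 1.68-fold and 1.63-fold, and SLC3A2 1.63-fold and 1.69-fold. In the additive limma model no member passed for 10 uM PTUPB (0 of 36, and 0% of all genes in either direction). At unadjusted p under 0.05 there were 2 of 36 (SLC1A4 at 0.72 and SLC6A9 at 0.66), near the 3.7% of all genes, and limma-voom called 0 members.

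Pairs of libraries that differ by 20 uM PTUPB held more members past log2 1 than the other pairs, and the same was true of all genes. Over control, 4 of 36 members were higher and 6 lower at 20 uM, near the 9.47% and 12.7% of all genes. Over enzalutamide alone, 3 of 36 were higher with 20 uM PTUPB added, a smaller share than the 13.5% of all genes. In that pair 11 were lower, a larger share than the 15.8% of all genes. The lower members of both pairs include SLC1A3, SLC6A6 and SLC16A10. These passed the level filter only through the libraries below 20 uM, so they could enter the counts only as lower. With 10 uM PTUPB added to enzalutamide 0 were past it (2.24% and 1.57% of all genes), and with enzalutamide added to 10 uM PTUPB 0 as well (1.41% and 2.01%).

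The difference between libraries with and without enzalutamide varied with PTUPB dose among the carriers. Among 21 tested carriers, 16 were higher with enzalutamide at 0 uM PTUPB (median 0.37), 14 at 10 uM (median 0.14) and 5 at 20 uM (median -0.19). Among 15 enzymes, 11, 12 and 9 were higher, with medians of 0.16, 0.22 and 0.26. Over all genes 49.3%, 48.6% and 53.1% were higher, with medians of -0.0025, -0.0084 and 0.036. After TPM the carrier medians were -0.041, 0.13 and -0.51 and the enzyme medians -0.26, 0.18 and -0.044, beside all-gene medians of -0.41, -0.052 and -0.24, so the signs depend on the scaling. At 20 uM, SLC7A2, an arginine carrier, was 2.88-fold lower with enzalutamide (3.75 to 1.30 FPKM), SLC1A1 2.33-fold, SLC38A1 1.81-fold and SLC38A2 1.65-fold lower, while SLC3A2 was 2.59-fold higher. By log2 1 or more, 1 member was higher (SLC3A2) and 1 lower (SLC7A2) there, against 3.83% and 2.9% of all genes.

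Tested as an interaction of enzalutamide with linear PTUPB dose in limma, no member passed (0 of 36, and 0% of all genes). At unadjusted p under 0.05 there were 6 of 36 members, beside 9.41% of all genes, all 6 being carriers with negative terms: SLC1A4, SLC6A9, SLC38A7, SLC38A1, SLC1A1 and SLC38A2. Their terms ran from -0.59 for SLC1A1 to -0.49 for SLC38A7 per 10 uM PTUPB (log2 scale). For the additive enzalutamide effect 0 of 36 members passed, again with 0% of all genes called, and 3 had unadjusted p under 0.05, beside 4.83% of all genes: SLC3A2 (0.78), ASNS (0.67) and SLC43A2 (0.45). Limma-voom called 0 members in either test.

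**Figure D5:**
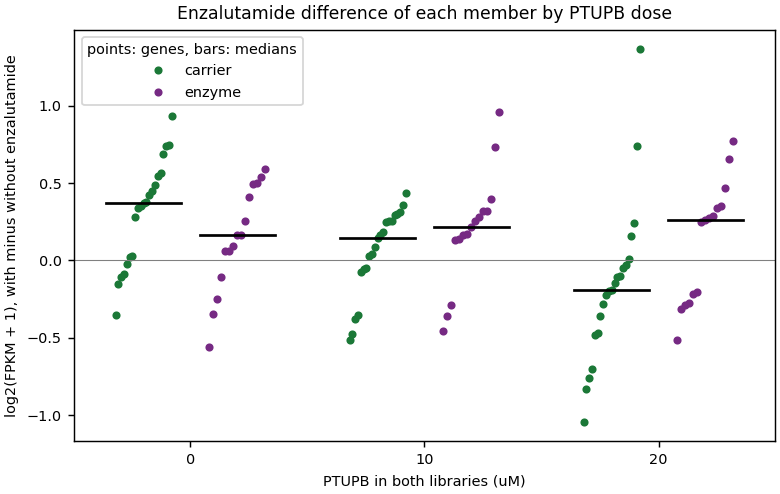
Difference in log2(FPKM + 1) between the library with and the library without enzalutamide, at 0, 10 and 20 uM PTUPB; each point is 1 of 36 tested members (carriers green, enzymes purple) and bars are medians. The carrier medians are 0.37, 0.14 and -0.19, and SLC3A2 is the top point at 20 uM.

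Genes of related processes were counted at 20 uM PTUPB by limma, beside the 15.9% and 18.2% of all genes that rose and fell. Of 20 cytosolic aminoacyl-tRNA synthetases, which load amino acids onto tRNAs, 10 rose, 1 fell and 9 did not pass (median 0.60). GARS1 (1.86, SE 0.20), SARS1 (1.79, SE 0.20) and WARS1 (1.54, SE 0.20) rose most, and the glutaminyl synthetase QARS1 fell (-1.28, SE 0.20). Of 15 ATF4 branch regulators 9 rose and 1 fell (median 1.68), with ATF3 (5.48, SE 0.21) and DDIT3 (4.29, SE 0.20) the highest; ATF4 itself did not pass (0.39, SE 0.22). Of 17 tested genes of lysosomal amino acid sensing 6 rose and 0 fell (median 0.12), among them the Rag GTPase genes RRAGC (1.77, SE 0.17) and RRAGD (1.51, SE 0.18).

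Other enzymes of glycine, folate, glutamine and transamination metabolism numbered 22 tested, of which 8 fell, 1 rose and 13 did not pass (median -0.49). The glycine decarboxylase GLDC fell by 2.46 (SE 0.17, limma adjusted p 0.0023), from between 6.66 and 8.53 FPKM below 20 uM to 0.781 and 0.567, so it passed the level filter only through the libraries below 20 uM. The mitochondrial branched-chain aminotransferase BCAT2 fell too (-1.39, SE 0.19), and the serine racemase SRR rose (0.90, SE 0.18). Among 10 other carriers tested of 31 listed, 4 fell and 1 rose. Among those that fell were SLC25A12 (-1.34, SE 0.17) and SLC25A22 (-1.16, SE 0.18), which carry glutamate across the mitochondrial membrane. The glutamine carrier SLC38A3 fell too (-1.17, SE 0.22), from between 2.18 and 4.44 FPKM below 20 uM to 0.661 and 1.07 there. Thus SLC38A3 passed the level filter mainly through the libraries below 20 uM. The lysosomal carrier SLC66A1 rose (0.59, SE 0.17, limma adjusted p 0.042).

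The 2 members under the level filter were SLC38A5 and SLC36A4, and neither was tested. SLC38A5, a glutamine carrier, was at 0.0167 FPKM in control (2 fragments), 0.0882 with enzalutamide, 0.0253 and 0.0943 at 10 uM, and 0.591 and 0.394 at 20 uM (56 and 29 fragments). Its 20 uM libraries were above the other 4. SLC36A4, an amino acid carrier related to SLC36A1, stayed between 0.391 and 0.778 FPKM, from 98 to 178 fragments.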

How the data were processed

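Values were FPKM as the authors deposited them, 1 column per library; HISAT and Cufflinks are named per the submitters' processing notes, and versions, genome build and strand handling are not given in the sources used here. Each value times the GENCODE 29 exon length was a whole multiple of 1 step per library (100% of values under 50 fragments, within 0.05), which gave fragments. All 58735 identifiers matched GENCODE 29. Genes with mean FPKM of at least 1 were analysed as log2(FPKM + 1). Limma 3.58.1 (R 4.3.3, intensity trend, two-sided, Benjamini-Hochberg at 0.05) fitted PTUPB as 3 levels plus enzalutamide (2 residual degrees of freedom); the interaction fit had 1. On simulated data the test recovered most log2 2 changes, and false calls exceeded the share the adjustment aims at. Single-library pairs are values only. Members and lists were chosen with earlier results of these data known. Genes with all 6 values were a fixed set of 12 members plus the 8 largest effects in each direction at 20 uM; for other members the choice was made after values were seen. Some genes that the lists hold are not reported here. Alternatives were pseudocount 0.1, no filter, TPM, total fragments, limma-voom and leaving out each library. Other steps used Python 3.11.15, pandas 2.3.3 and matplotlib 3.10.9.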

Additional observations from a re-analysis of the deposited data

How the results depend on the processing

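No paired analysis was possible because each group holds 1 library and so the groups share only replicate number 1; the additive fit already compares libraries with and without enzalutamide at each PTUPB dose. The counts of members rising and falling at 20 uM PTUPB (6 and 11) became 2 and 2 with no filter on low values, and ranged from 0 to 7 and from 0 to 18 over the fits that left out 1 library, in which fewer residual degrees of freedom remain; the 2 counts were 0 without the enzalutamide library. Against 10 uM (4 and 13) they became 1 and 2 with no filter and ranged from 2 to 5 and from 0 to 20. With pseudocount 0.1 and limma-voom all 17 calls at 20 uM remained, and with TPM and with total fragments 16 remained. No share of all genes called is given beside the counts of these alternative fits. They show how far the calls depend on the processing and nothing particular to the members.

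The members' median single-library difference turned after TPM for enzalutamide over control (0.31 to -0.10) and for 10 uM PTUPB over control (0.21 to -0.061). It moved with total fragments for enzalutamide over control (0.13), with TPM and total fragments for enzalutamide at 20 uM PTUPB (-0.13 to -0.44 and -0.31), and with pseudocount 0.1 for 20 uM PTUPB over enzalutamide (-0.67 to -0.79). The cause was not tested.

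No called member turned direction under any alternative run. Uncalled ones that changed sign for 20 uM were SLC6A9 (0.033 after TPM), and, over the fits without 1 library, SLC38A1 (-0.32 to 0.62), PYCR1 (-0.25 to 0.49), SLC38A7 (-0.69 to 0.19), SLC6A9 (-0.38 to 0.35) and SLC7A2 (-0.79 to 0.31). Against 10 uM they were ALDH18A1 (0.015) and SLC1A4 (0.15) after TPM, SLC7A1 (-0.063) with total fragments, and, without 1 library, ALDH18A1 (-0.39 to 0.11), SLC7A1 (-0.11 to 0.12), PYCR1 (-0.20 to 0.55), SLC1A4 (-0.42 to 0.41) and SLC38A1 (-0.78 to 0.16). The interaction could not be fitted with a library left out, as no residual degrees of freedom remain. Depth limits mainly SLC38A5 and SLC1A3.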
